A study of Mus musculus with 12 samples.

Results

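The mouse genes with symbols of the form Zfp and a number encode zinc finger proteins, and 269 of them were expressed in these cells. Members were chosen by symbol and level: a symbol of Zfp followed only by digits, with 6 or more of the 12 libraries at 1 FPKM or above. FPKM, the number of fragments scaled to gene length and library size, is the unit the authors deposited. The table holds 352 rows with such symbols among 29462 in all, so 83 lay outside the rule, 66 of them under 1 FPKM in all 12 libraries. RNA came from primary aortic smooth muscle cells, 6 libraries from C57BL/6J mice (WT) and 6 from global CSE-knockout mice (KO). CSE, cystathionine gamma-lyase, is the enzyme encoded by Cth that makes hydrogen sulfide from cysteine, and the study asks what its loss changes in smooth muscle in the setting of abdominal aortic aneurysm. All cells were grown in DMEM with 10% fetal bovine serum and received angiotensin II at 1 uM for 24 h, leaving a single comparison of KO with WT and no untreated cells. The strain background of the KO mice, their age and sex, the passage of the cells, and whether libraries of a genotype came from separate animals or cultures are unstated in the labels. The p-values thus cover only the scatter among these libraries, possibly technical, and a difference between genotypes cannot be told apart from one between cultures or mouse lines.

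A C2H2 zinc finger is a short fold held by a zinc ion between cysteine and histidine pairs, and rows of such fingers read DNA or, in some proteins, RNA. The largest class in mammals joins the fingers to a KRAB domain, which recruits Trim28 and through it Setdb1 and heterochromatin proteins, and is best known for silencing retroelements. These KRAB genes stand in clusters that grew by local duplication and differ between species and between mouse strains. Other Zfp proteins without KRAB serve as transcription factors, co-regulators, ubiquitin or SUMO ligases, or factors for RNA and ribosomes, because the symbol names a fold and not a single function.

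As facts of the whole data set, the deposited values summed to between 255538 and 281432 FPKM per library and their depth in reads is unknown. The first principal component (76.8% of the variance) separated the genotypes and the second (14.2%) set KO replicates 5 and 6 (-30.4 and -35.2) apart from KO replicates 1 to 4 (14.9 to 18.6). Cth does not check the labels, since it was listed at 0 to 0.08 FPKM in WT and 0 to 0.02 in KO. The label of smooth muscle held only in part: Acta2 stood at 75.3 to 146 FPKM over all libraries, but Myh11, Cnn1 and Myocd, 3 of the 6 contractile markers, were below 1 FPKM in all 12. Smtn stood at 8.81 to 20.5 FPKM, and Tagln passed 1 FPKM only in KO replicate 6, at 1.32. The 3 endothelial markers summed to at most 0.26 FPKM. The sum of 7 epithelial or mesothelial markers was 146 to 155 FPKM in WT and 44.5 to 67.8 in KO, with Krt8 and Krt18 below 1 in all libraries. Mean Cdh1 was 65.0 FPKM in WT and 0.86 in KO and Krt19 78.5 and 50.1, while Wt1 (0.12 and 1.51), Upk3b (0.45 and 2.1) and Krt18 (0.05 and 0.25) had higher means in KO. The sum of 4 macrophage markers was 1.45 to 2.19 FPKM in WT and 5.95 to 11.8 in KO, with Ptprc and Adgre1 below 1 in all. The 4 fibroblast markers summed to 540.2 to 571 FPKM in WT and 396 to 883 in KO, mostly from Col1a1 (means 488 and 624). Pdgfra did not overlap between genotypes, at 0.86 to 1.49 FPKM in WT and 5.09 to 13.4 in KO. Dcn had means of 68.4 and 101 FPKM, and Lum was below 1 in all libraries. The epithelial or mesothelial sum and the macrophage sum did not overlap between genotypes, the other 3 sums did, and their part in the results was not tested. In such bulk RNA, fewer cells of a type and less RNA per cell cannot be told apart.

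The promoters of 5 members are shown because these genes carry the results: the member that was on in WT and off in KO, and, among called members, a pair from chromosome 17 of the 8 largest falls and the pair with the largest rises. Each is the sequence just upstream of the start in RefSeq and GENCODE, 5′ to 3′ on the gene's strand, on build GRCm38.p6, with CpG dinucleotides in capitals. The stretch of Zfp951 is chr5:104860071-104860318 on the minus strand, that of Zfp760 chr17:21707491-21707740 on the plus strand, that of Zfp799 chr17:32830262-32830511 on the minus strand, that of Zfp503 chr14:21989602-21989851 on the minus strand and that of Zfp764 chr7:127406823-127407072 on the minus strand.
Zfp951: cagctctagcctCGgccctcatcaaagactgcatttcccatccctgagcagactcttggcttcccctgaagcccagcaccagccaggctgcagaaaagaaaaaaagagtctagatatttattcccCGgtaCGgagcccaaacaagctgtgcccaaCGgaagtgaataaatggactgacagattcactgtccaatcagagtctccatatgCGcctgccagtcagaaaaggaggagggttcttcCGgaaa
Zfp760: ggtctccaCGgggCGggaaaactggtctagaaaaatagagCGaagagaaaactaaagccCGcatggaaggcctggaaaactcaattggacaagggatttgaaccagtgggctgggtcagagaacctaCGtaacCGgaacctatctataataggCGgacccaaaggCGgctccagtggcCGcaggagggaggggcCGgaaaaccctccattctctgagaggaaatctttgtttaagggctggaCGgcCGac
Zfp799: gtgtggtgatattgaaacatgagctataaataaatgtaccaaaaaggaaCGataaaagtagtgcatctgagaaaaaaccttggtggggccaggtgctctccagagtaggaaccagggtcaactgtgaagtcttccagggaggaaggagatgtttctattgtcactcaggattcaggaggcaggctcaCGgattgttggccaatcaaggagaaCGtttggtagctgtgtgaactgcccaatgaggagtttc
Zfp503: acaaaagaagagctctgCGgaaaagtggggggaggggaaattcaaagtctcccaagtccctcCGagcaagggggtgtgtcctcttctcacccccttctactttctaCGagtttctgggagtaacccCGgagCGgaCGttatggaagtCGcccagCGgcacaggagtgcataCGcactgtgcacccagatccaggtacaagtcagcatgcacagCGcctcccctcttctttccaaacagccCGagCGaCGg
Zfp764: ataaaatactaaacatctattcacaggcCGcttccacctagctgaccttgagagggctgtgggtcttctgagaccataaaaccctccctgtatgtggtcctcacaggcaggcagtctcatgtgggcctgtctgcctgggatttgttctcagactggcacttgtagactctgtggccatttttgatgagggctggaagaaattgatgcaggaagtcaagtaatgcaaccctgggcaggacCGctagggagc
The stretches hold 6, 12, 3, 13 and 2 CpG in that order, over 248 bases for Zfp951 and 250 for the others. CCAAT, read on either strand, stands in the stretches of Zfp951, Zfp760 and Zfp799 and not in those of Zfp503 and Zfp764. These few do not stand for the members. In the longer promoters described next, 55.36% of members with CCAAT fell and 8.93% rose, against 53.85% and 6.73% without it. Of these 5, only Zfp951 holds CCGGAAG, the core that ETS factors bind, on the opposite strand near the end of its stretch.

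RefSeq promoters, from 250 bases before to 50 after the start, were matched by symbol for 222 of the 269 members (the first listed where a gene has several). Members had a median of 14 CpG per promoter, against 7 over all 27025 promoters in the table. CCGGAAG, on either strand, stood in 22.5% of the members' promoters and in 9.12% of all. CCAAT stood in 51.8% against 37.9%, and GGGCGG, bound by SP1, in 46.4% against 35.9%. GCGCATGCG, bound by NRF1, stood in 4.95% against 1.81% and AAGATGGCG, bound by YY1, in 3.6% against 1.49%, while TATAAA was the rarer among members, in 6.31% against 14.2%. The members' promoters thus held more CpG and less often a TATA sequence than the whole set of promoters. That set also covers genes not expressed in these cells, and a comparison with expressed genes alone was not made. A match describes letters and not a bound site.

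Zfp members were mostly lower in KO. Calls are from limma on log2(FPKM + 1) over all 11831 genes that meet the same level rule, at an adjusted p under 0.05. They are counted over the 260 members at 1 FPKM or more in at least 1 library of each genotype, since the other 9 passed the rule through 1 genotype alone and had to differ. Of the 260, 25 rose in KO (9.62%), 146 fell (56.2%) and 89 were not called. The background is high, as 63.5% of all genes tested were called, 32.6% higher and 30.9% lower in KO. Among the 11264 genes tested that reach 1 FPKM in both genotypes, 30.8% were higher and 30.9% lower, so the members' share of falls lay above the background and their share of rises below it. The median difference of the 260 members was -0.24 on the log2(FPKM + 1) scale, against 0.01 over all genes tested, and 208 differences were below 0 and 52 above.

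All 6 KO libraries lay below all 6 WT libraries in 107 of the 260 members (22.1% of the 11264 genes at that level) and above them in 15 (21.6%). Restricting to the 195 members at 1 FPKM or more in all 12 libraries gave 22 higher and 103 lower, with a median of -0.20, where the same rule over 10193 genes gave 32.2% higher and 29.9% lower. Among members with a mean under 2 FPKM 52.7% fell and among those from 2 to 5 FPKM 61.3%, against 31.0% and 33.7% of all genes in the same ranges. Rises there made up 5.41% and 5.65% of members, against 18.8% and 26.5% of all genes, so low genes in general rose less often. Above 5 FPKM, 14 of 62 members rose (22.6%) and 31 fell (50.0%), with no share of all genes computed in that range. Differences below -0.5 were found in 28.8% of members and 13.5% of genes, and differences above 0.5 in 3.5% and 14.7%. With KO replicates 1 to 4 alone, 27 of the 260 were higher and 151 lower, where 38.5% and 37.4% of the 11264 genes were called.

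**Figure D1:**
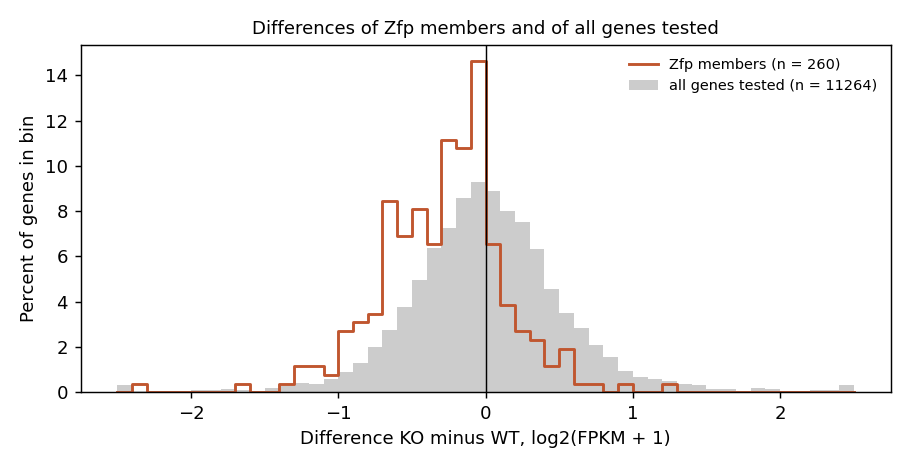
Percent of genes in bins of 0.1 of the KO minus WT difference in mean log2(FPKM + 1), for the 260 members (line) and the 11264 genes tested that reach 1 FPKM in both genotypes (grey bars); the outermost bins also hold all values beyond them. The members' line lies to the left of the grey bars, with a median of -0.24.

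The members summed to 0.401% to 0.419% of all FPKM in the 6 WT libraries and to 0.318% to 0.354% in the 6 KO libraries, and the groups do not overlap. Mean levels were low throughout, with a median of 3.23 FPKM in WT and 2.43 in KO, and only 12 members averaged over 10 FPKM over the 12 libraries. Between 259 and 265 members reached 1 FPKM in each WT library, 248 to 252 in KO replicates 1 to 4, 228 in KO replicate 5 and 214 in KO replicate 6. These sums and counts include the 9 members that passed the rule through 1 genotype alone, 7 of them through WT. The counts also use the rule's own threshold, so part of their difference follows from the choice of members. In the authors' deposited table, 40 of all 269 members are marked significant, 35 with more RNA in WT and 5 with more in KO. Of the 11831 genes that meet the same level rule, that table marks 5.61% with more in WT and 8.55% with more in KO. Both sets include genes that passed the rule through 1 genotype alone and had to differ.

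The pattern was shared by zinc finger genes named otherwise. Of 49 tested genes with Zbtb, Zkscan or Zscan symbols, which pair the fingers with BTB or SCAN domains, 5 were higher and 27 lower in KO, with a median difference of -0.19. The 21 tested Zfp symbols with a letter after the number differed, with 7 higher and 10 lower and a median of 0.04. The difference between these sets of genes was not tested.

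Members that were on in 1 genotype and off in the other, at 1 FPKM or more in all 6 libraries of one and under 0.2 in all 6 of the other, numbered 3. They are described with no test, because they passed the rule through 1 genotype. Gene positions here and below are those of GRCm38 in GENCODE M21. Zfp991 (ENSMUSG00000067916; chr4:147132038-147180579, plus strand) was at 0.05, 0.04, 0.03, 0.01, 0.02 and 0.02 FPKM in WT replicates 1 to 6, whereas KO replicates 1 to 6 held 4.32, 5.67, 4.85, 4.7, 4.2 and 2.58. Zfp993 (ENSMUSG00000063245; chr4:146610961-146658160, plus strand) was at 0.04, 0.03, 0, 0.04, 0.04 and 0 FPKM in WT and at 4.63, 4.29, 4.36, 4.29, 4.28 and 3.12 in KO. Both are KRAB genes, near 0 in each WT library and clearly present in each KO library, with KO replicate 6 the lowest of the 6. Zfp951 (ENSMUSG00000072774; chr5:104813169-104860070, minus strand), a KRAB gene with 10 fingers, ran the other way, at 2.05, 1.99, 2.08, 2.2, 1.89 and 2.01 FPKM in WT and 0.12, 0.07, 0.11, 0.19, 0.01 and 0.02 in KO. Its WT libraries lay close together, and no KO library passed 0.19 FPKM.

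Zfp991 and Zfp993 lie in the same KRAB gene stretch of chromosome 4. Their transcripts share most of their sequence with other genes: 73.8% of the 100-base words of Zfp991 also occur in another gene, mainly Znf41-ps, and 71.9% of those of Zfp993, mainly in Zfp991. The sources used here do not say how reads were divided among such copies, so the 2 rows cannot be taken as independent measurements and the level of each is uncertain. Zfp951 shares no such word with another gene. Among the 9 rows with Zfp symbols in this stretch, Zfp992 lies outside the rule and was picked here after its values were seen: its WT libraries held at most 0.03 FPKM and its KO libraries 1.62, 1.89, 1.89, 1.88, 1.29 and 0.80. Zfp600, Zfp978, Zfp979 and Zfp982 did not pass 0.21 FPKM in any library. The neighbouring members at its far end did not share the rise: Zfp984 held 4.98 to 5.90 FPKM in WT and 2.56 to 5.02 in KO, and Zfp933 1.89 to 2.02 and 1.16 to 1.69.

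**Figure D2:**
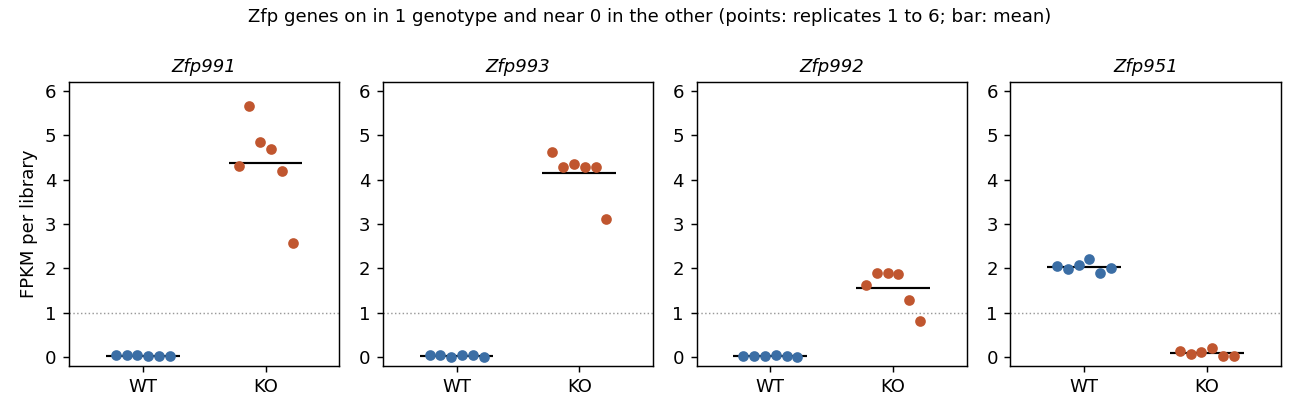
FPKM in each library for Zfp991, Zfp993, Zfp992 and Zfp951 (points, replicates 1 to 6 from left to right; bars, means; dotted line, the 1 FPKM of the rule). The first 3 are near 0 in the WT libraries and Zfp951 is near 0 in the KO libraries.

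The other 6 members that passed through 1 genotype were all at 1 FPKM or more in WT only and were reduced in KO without being off. Zfp945 was at 1.76 to 2.11 FPKM (median 1.85) in WT and 0.65 to 0.95 FPKM (median 0.85) in KO. Zfp40 was at 1.68 to 1.88 FPKM (median 1.73) and 0.51 to 0.91 FPKM (median 0.71). Zfp661 was at 1.11 to 1.47 FPKM (median 1.28) and 0.35 to 0.61 FPKM (median 0.50). Zfp599, Zfp882 and Zfp975 had WT means of 1.33, 1.31 and 1.26 FPKM and KO means of 0.62, 0.68 and 0.93. In all 6, the rule left no room for overlap between genotypes, so its absence is not a result. Outside the rule, Zfp454, also picked after its values were seen, held 0.82 to 1.42 FPKM in WT and at most 0.08 in KO. Other rows outside the rule ran the opposite way, and those named here were picked in the same manner. Zfp105 held at most 0.12 FPKM in WT and 0.69 to 1.1 in KO. Zfp641 held at most 0.09 and 0.31 to 0.87, and Zfp709 at most 0.01 and 0.32 to 0.75.

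The rule's threshold divides members that differ little. Just inside, the sixth highest library of Zfp775 stood at 1.00 FPKM and that of Zfp976 at 1.02; just outside, that of Zfp667 stood at 0.99 and that of Zfp72 at 0.98. Neither Zfp775 (0.91 ± 0.12 FPKM, SD, in WT and 1.00 ± 0.27 in KO, n = 6 each) nor Zfp976 (0.92 ± 0.11 and 1.17 ± 0.29) was called.

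The largest fall among called members was that of Zfp422, a small protein of 237 residues with 5 fingers and no KRAB pattern (ENSMUSG00000059878; chr6:116624016-116628999, minus strand). Its WT libraries stood at 10.6, 10.2, 10.9, 10.4, 11.9 and 11.1 FPKM and its KO libraries at 1.6, 1.44, 1.76, 1.7, 0.91 and 1.04. The lowest WT library was far above the highest KO library, and Zfp422 was 7.7-fold lower in KO as a ratio of means (difference -2.31 ± 0.09 SE on the log2(FPKM + 1) scale, adjusted p = 1.44e-10, limma). Zfp703, a co-repressor of the NET family (chr8:26977325-26981461, plus strand), stood at 11.2, 10.8, 9.93, 11.2, 10.3 and 10.7 FPKM in WT and 3.1, 3.34, 3.04, 3.32, 4.61 and 0.47 in KO. It fell 3.59-fold (-1.66 ± 0.25, adjusted p = 5.46e-05), and within KO it was highest in replicate 5 and lowest in replicate 6. Zfp503, of the same family, moved the opposite way and is given below.

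Of the next falls, 3 sit on chromosome 17 and encode KRAB proteins with 15 or 16 fingers. Zfp760 (chr17:21707741-21725636, plus strand) was at 5.16 to 5.88 FPKM (median 5.23) in WT and 0.93 to 2.00 FPKM (median 1.59) in KO (-1.33 ± 0.09, adjusted p = 3.98e-08). Zfp799 (chr17:32815449-32830261, minus strand) was at 3.74 to 4.32 FPKM (median 3.97) and 0.52 to 1.48 FPKM (median 1.31) (-1.28 ± 0.12, adjusted p = 8.97e-07), with KO replicates 5 and 6 at 0.59 and 0.52 FPKM, below the other 4 at 1.27 to 1.48. Zfp871 (chr17:32765496-32788287, minus strand) was at 11.4 to 13.1 FPKM (median 12.4) and 3.63 to 5.49 FPKM (median 4.78) (-1.23 ± 0.07, adjusted p = 1.05e-08). None of the 3 overlapped between genotypes. Zfp970, a KRAB gene of chromosome 2, fell from a WT range of 5.46 to 7.59 FPKM (median 7.41) to a KO range of 1.28 to 3.53 FPKM (median 2.92), and 19.4% of its 100-base words occur in another gene, mainly Gm14288, which leaves its level uncertain.

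The last of the 8 largest falls lack the KRAB pattern. Zfp395, a DNA-binding protein with a single C2H2 finger (chr14:65358389-65398930, plus strand), fell from a WT range of 11.5 to 12.5 FPKM (median 11.9) to a KO range of 3.81 to 5.31 FPKM (median 4.95), 2.5-fold (adjusted p = 8.43e-09). Zfp263, a factor with 9 fingers (chr16:3744093-3750790, plus strand), fell from a WT range of 9.4 to 11.5 FPKM (median 10.4) to a KO range of 3.2 to 4.86 FPKM (median 4.19), 2.54-fold (adjusted p = 3.86e-08). Both stood above 9 FPKM in every WT library and below 6 in every KO library. In all, 30 of the 146 falls and 3 of the 25 rises reached a ratio of means of at least 2.

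**Figure D3:**
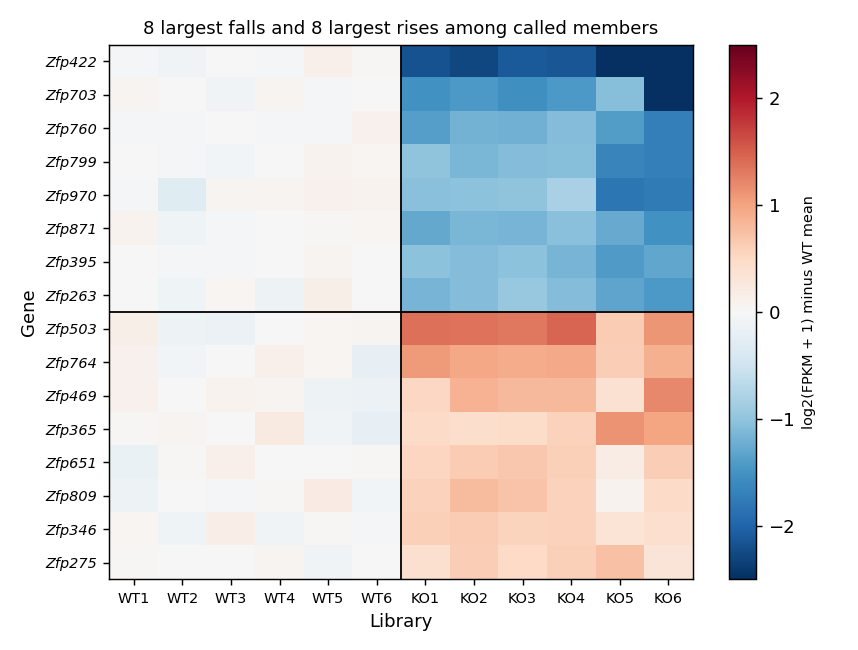
log2(FPKM + 1) of each library minus the mean of the 6 WT libraries, for the 8 largest falls (upper block) and the 8 largest rises (lower block) among called members; columns are the 6 WT and 6 KO libraries. Every KO library lies below the WT mean in the upper block and above it in the lower block, and KO replicates 5 and 6 lie below KO replicates 1 to 4 in 6 of the 8 falls, all but Zfp703 and Zfp871.

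The largest rise among called members was that of Zfp503, the co-repressor also called Nolz1 (ENSMUSG00000039081; chr14:21983959-21989601, minus strand). It stood at 4.5, 3.58, 3.48, 4.03, 4.18 and 4.19 FPKM in the WT libraries and 11.9, 11.7, 11.5, 12.7, 6.71 and 9.64 in the KO libraries. Its genotypes did not overlap, with KO replicates 5 and 6 the lowest of the KO libraries, and the ratio of means was 2.67 (difference 1.2 ± 0.12, adjusted p = 1.7e-06). Zfp764, a KRAB gene of chromosome 7, rose from a WT range of 0.59 to 1.00 FPKM (median 0.85) to a KO range of 1.81 to 2.82 FPKM (median 2.5) (adjusted p = 4.1e-07); only 1 of its WT libraries reached 1 FPKM. Zfp469, annotated as a lincRNA in the release used here, rose from a WT range of 0.71 to 1.05 FPKM (median 0.94) to a KO range of 1.48 to 3.38 FPKM (median 2.33) (adjusted p = 7.56e-05).

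Zfp365, a coiled-coil protein linked to the centrosome and DNA damage in which no C2H2 finger was found by the pattern, rose from a WT range of 7.24 to 10.0 FPKM (median 8.56) to a KO range of 11.9 to 19.7 FPKM (median 12.7) (adjusted p = 0.000331). Here KO replicates 5 and 6 were the highest, at 19.7 and 17.8 FPKM against 11.9 to 13.1 in the other 4. Zfp651 rose from a WT range of 1.78 to 2.39 FPKM (median 2.14) to a KO range of 2.53 to 3.95 FPKM (median 3.73) (adjusted p = 7.1e-05). Zfp275, X-linked, rose from a WT range of 5.32 to 6.04 FPKM (median 5.71) to a KO range of 7.34 to 10.1 FPKM (median 8.81) (adjusted p = 2.07e-05). The remaining 2 of the 8, Zfp346 and Zfp809, are given with their roles.

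Of the 11 members with a role in RNA, ribosomes, ubiquitin or SUMO, 4 rose, 3 fell and 4 were not called, with a median difference of 0.08. These shares, 36.4% and 27.3%, are near the background of 30.8% higher and 30.9% lower. Zfp622, a factor of late maturation of the large ribosomal subunit, rose from a WT range of 5.52 to 6.51 FPKM (median 5.8) to a KO range of 7.9 to 9.26 FPKM (median 8.9) (adjusted p = 2.38e-06). Zfp346, which binds double-stranded RNA, rose from a WT range of 4.01 to 5.1 FPKM (median 4.38) to a KO range of 5.9 to 7.48 FPKM (median 7.08) (adjusted p = 1.67e-05). Neither overlapped between genotypes. Zfp326, of a complex that links elongation to splicing, rose from 5.7 ± 0.19 to 6.72 ± 0.37 FPKM (SD, n = 6 each; adjusted p = 0.00199, limma). Zfp593, a ribosome assembly factor, rose from 3.02 ± 0.24 to 4.32 ± 0.85 FPKM (SD, n = 6 each; adjusted p = 0.00285, limma), but 77.9% of its exons overlap a gene on the opposite strand, and the sources used here do not say if counting was by strand.

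The 3 falls in this group included Zfp598, the ubiquitin ligase that marks collided ribosomes, at 13.5 to 15.3 FPKM (median 14.3) in WT and 7.63 to 13.4 FPKM (median 8.6) in KO (adjusted p = 0.000219). Its KO replicate 6, at 13.4 FPKM, came close to the WT libraries while the other 5 stayed at 7.63 to 9.04. Zfp451, a SUMO ligase, fell from a WT range of 3.92 to 4.17 FPKM (median 4.02) to a KO range of 2.24 to 2.96 FPKM (median 2.71) (adjusted p = 6.17e-06). Zfp638, which silences unintegrated retroviral DNA with the HUSH complex, fell from a WT range of 5.76 to 6.34 FPKM (median 6.17) to a KO range of 4.17 to 5.1 FPKM (median 4.7) (adjusted p = 0.000173). Zfp36, tristetraprolin, which promotes decay of AU-rich mRNA, was not called, at 4.92 ± 0.60 FPKM in WT and 5.8 ± 1.75 in KO (SD, n = 6 each), but was higher with KO replicates 1 to 4 alone (adjusted p = 0.00109, limma); KO replicates 5 and 6 stood at 3.50 and 3.98 FPKM against 5.58 to 7.56 in the others. Also not called were Zfp91, a ubiquitin ligase, at 11.7 ± 0.42 and 12.4 ± 0.30, the RNA-binding Zfp106 and the spindle protein Zfp207.

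Those last 2 are also among the 5 highest members. Zfp207 averaged 28.5 ± 0.70 FPKM over the WT libraries and 29.3 ± 2.8 over the KO libraries (SD, n = 6 each). Zfp106 averaged 24.2 ± 0.97 and 24.0 ± 4.11, where KO replicate 6 alone exceeded the WT libraries at 31.8 FPKM. Zfp706 rose, from 21.7 ± 0.97 to 26.4 ± 4.08 FPKM (adjusted p = 0.0326, limma), and so did Zfp740, from 16.9 ± 0.77 to 19.0 ± 0.85 (adjusted p = 0.00987, limma). Zfp637 fell, from 17.1 ± 0.46 to 15.0 ± 1.26 (adjusted p = 0.0151, limma). The genotypes overlapped in all 5. The call of Zfp706 was lost without any 1 of WT replicates 1, 3, 5 and 6 and KO replicates 1 to 4 (adjusted p = 0.054 to 0.0725), and with quantile normalization (adjusted p = 0.23), as was that of Zfp740 (adjusted p = 0.356).

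Transcription factors and co-regulators without a repressor KRAB role leaned lower, with shares near those of all members. Of 23 such members 2 rose (8.7%), 13 fell (56.5%) and 8 were not called, with a median of -0.20. The shares over all 260 members were 9.62% and 56.2%, and over genes tested that reach 1 FPKM in both genotypes 30.8% and 30.9%. The rises were Zfp503 and Zfp131. Zfp131, a BTB factor, went from a WT range of 5.06 to 5.67 FPKM (median 5.42) to a KO range of 6.8 to 9.33 FPKM (median 7.83) (adjusted p = 4.29e-05, limma). Zfp148, which binds GC-rich promoters, fell from a WT range of 9.08 to 9.58 FPKM (median 9.29) to a KO range of 4.28 to 6.87 FPKM (median 6.16) (adjusted p = 4.86e-05). Zfp516, a factor of brown fat genes, fell from a WT range of 13.0 to 15.7 FPKM (median 14.9) to a KO range of 5.6 to 9.57 FPKM (median 8.84) (adjusted p = 3.48e-05). Zfp827, which brings the NuRD complex to chromatin, fell from a WT range of 2.08 to 2.68 FPKM (median 2.48) to a KO range of 0.66 to 1.1 FPKM (median 0.84) (adjusted p = 1.1e-07). The 3 did not overlap between genotypes.

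In the same group Zfp260 fell from 10.4 ± 0.64 to 5.63 ± 1.26 FPKM (SD, n = 6 each; adjusted p = 5.38e-05, limma), Zfp24 from 7.49 ± 0.18 to 4.95 ± 0.65 (adjusted p = 3.52e-05) and Zfp318 from 2.85 ± 0.14 to 1.51 ± 0.31 (adjusted p = 1.37e-05). Zfp292, Zfp462, Zfp532, Zfp407, Zfp217, Zfp687 and Zfp703 fell as well, Zfp217 no longer so without WT replicate 1 (adjusted p = 0.0542). Of Zfp532, Zfp592 and Zfp687, which form a complex with Zmynd8, the first went from 2.93 ± 0.15 to 2.38 ± 0.32 (adjusted p = 0.0101) and the last from 5.41 ± 0.29 to 4.6 ± 0.76 (adjusted p = 0.0371), while Zfp592 was at 4.15 ± 0.19 and 4.05 ± 0.64 and was not called. The call of Zfp687 was lost without any 1 of WT replicates 1 to 4 and 6 and KO replicates 1, 2, 3 and 5 (adjusted p = 0.0582 to 0.0783, limma). Also not called were Zfp143, a promoter factor, at 3.56 ± 0.30 and 3.96 ± 0.83, and Zfp281, known from stem cells, at 13.1 ± 0.59 and 13.2 ± 1.33, with Zfp219, Zfp335, Zfp367, Zfp609 and Zfp644. Zfp423, Zfp521 and Zfp608, the other listed factors in the table, lay outside the rule.

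Of the 5 expressed KRAB factors with a textbook role at imprinted loci or retroelements, all were called, 3 lower and 2 higher. Zfp57, which guards DNA methylation at imprinted loci, fell from a WT range of 8.02 to 9.3 FPKM (median 8.66) to a KO range of 5.44 to 8.48 FPKM (median 5.98) (adjusted p = 0.00121), with KO replicate 6 at 8.48 FPKM inside the WT range. Zfp445, which shares that role, fell from a WT range of 10.8 to 12.2 FPKM (median 11.6) to a KO range of 7.21 to 9.83 FPKM (median 8.21) (adjusted p = 6.7e-05), and Zfp568, which silences a placental transcript of Igf2, from a WT range of 1.95 to 3.78 FPKM (median 3.34) to a KO range of 0.80 to 1.9 FPKM (median 1.64) (adjusted p = 0.000333). Neither of these overlapped between genotypes, though WT replicate 4 of Zfp568 lay close to the KO values.

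The pair that rose acts on retroviral sequences. Zfp809, which binds the primer binding site of murine leukemia viruses, rose from a WT range of 3.84 to 5.13 FPKM (median 4.22) to a KO range of 4.64 to 8.2 FPKM (median 6.87) (adjusted p = 0.000574), with KO replicate 5 inside the WT range. Zfp932, which represses endogenous retroviruses, rose from a WT range of 1.62 to 1.95 FPKM (median 1.73) to a KO range of 1.97 to 2.68 FPKM (median 2.56) (adjusted p = 0.000411), and 22.1% of its 100-base words occur in another gene, mainly its near copy Gm15446.

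Protein features were read from the longest coding sequence of each member in the GENCODE annotation. A KRAB box was sought as a short pattern of its A box, and fingers as C-x(2,4)-C-x(12)-H-x(3,5)-H; a diverged KRAB box escapes such a pattern. Of 267 members with a coding sequence, 146 matched the KRAB pattern and 121 did not. The median number of fingers was 10, at 12 in members with the pattern and 7 in those without, with a maximum of 36, and 7 members had none. Zfp125 and Zfp469 have no coding sequence in that release.

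Of the 137 members with a KRAB pattern that were counted for calls, 6 rose (4.38%) and 88 fell (64.2%), with a median of -0.32. Of the 121 without it, 18 rose (14.9%) and 57 fell (47.1%), with a median of -0.14. By fingers, 15 of 40 members with 0 to 4 fell and 9 rose, 42 of 77 with 5 to 9 fell and 9 rose, 60 of 91 with 10 to 14 fell and 4 rose, and 28 of 50 with 15 or more fell and 2 rose. The share that fell thus went up from the first of these classes to the third and was lower again in the last, and the share that rose was highest in the class with the fewest fingers. Finger number and the KRAB pattern go together, and differences between these classes were not tested.

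**Figure D4:**
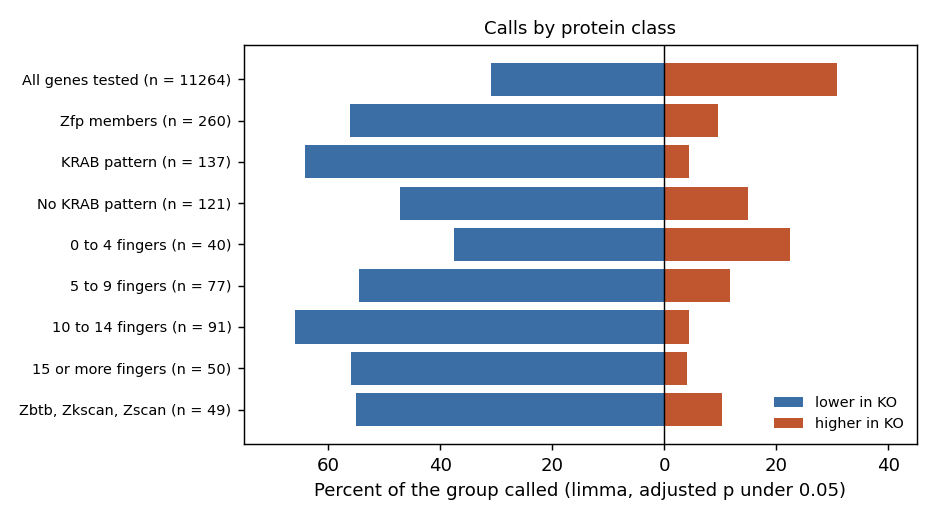
Percent of each group called lower (left, blue) or higher (right, orange) in KO by limma at an adjusted p under 0.05, with the number of genes per group. Members with a KRAB pattern fell in 64.2% and rose in 4.38%, against 47.1% and 14.9% of those without it and 30.9% and 30.8% of all genes tested that reach 1 FPKM in both genotypes.

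Calls are also given by promoter, where 30.8% of genes tested that reach 1 FPKM in both genotypes rose and 30.9% fell. Of the 108 with a promoter CpG number at or below the members' median, 5 rose and 68 fell (median -0.32), and of the 108 above it 12 rose and 50 fell (median -0.15). Of 48 with CCGGAAG none rose and 29 fell, against 17 and 89 of 168 without it. By CCAAT, 62 of 112 members that hold it were called lower and 10 higher, against 56 and 7 of 104 that do not. By GGGCGG, 48 of 101 members that hold it were called lower and 10 higher, against 70 and 7 of 115 that do not. None of these differences was tested.

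The co-repressors that KRAB proteins recruit moved in both directions, with more falls than rises. Of 26 tested genes of a list of partners and heterochromatin factors, 6 rose (23.1%), 11 fell (42.3%) and 9 were not called. Their median was -0.12. Among genes tested that reach 1 FPKM in both genotypes, 30.8% rose and 30.9% fell. Members with a KRAB pattern rose in 4.38% and fell in 64.2%, and those without it in 14.9% and 47.1%. The difference between these sets was not tested. Trim28, which binds the KRAB domain directly, averaged 49.0 ± 1.08 FPKM in WT and 47.2 ± 5.61 in KO (SD, n = 6 each) and was not called (adjusted p = 0.461, limma). Setdb1, the histone H3 lysine 9 methyltransferase it brings in, fell from 7.75 ± 0.54 to 6.79 ± 0.60 FPKM (adjusted p = 0.0317), and Cbx1, a heterochromatin protein, from 19.1 ± 0.69 to 12.7 ± 1.37 (adjusted p = 5.49e-06). The methyltransferase Suv39h1 rose from 6.13 ± 0.46 to 13.9 ± 4.71 FPKM (adjusted p = 0.00011), with KO replicates 5 and 6 at 19.89 and 19.96 against 10.3 to 11.2 in the other 4.

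Calls differed between chromosomes, and chromosome 17 held the highest share of falls among those with 10 or more members. Of its 38 members counted for calls 37 fell and 1 rose, with a median of -0.65; the exception, Zfp52, a KRAB gene with 14 fingers, went from a WT range of 5.78 to 6.69 FPKM (median 6.01) to a KO range of 7.15 to 8.98 FPKM (median 7.58) (adjusted p = 0.000805, limma). The other genes of chromosome 17 went the same way, with 353 of 540 (65.4%) lower, 46 higher and a median of -0.42. On chromosome 8, 15 of 18 members fell and 1 rose (median -0.57), and 52.9% of the other genes fell (median -0.22). On chromosome 16 all 4 members fell, and 62.6% of the other genes. On chromosome 2, 15 of 18 members fell and none rose, with a median of -0.44, but here the other genes had a median of -0.07 and 34.7% of them fell.

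The other genes were mostly higher in KO on chromosomes 5, 13, 15, 19 and X. On chromosome 5, 3 of 14 members rose and 5 fell, with a median of -0.12 beside 0.26 for the other genes. Chromosome 19 holds 2 members counted for calls, and none was called. On chromosome 15, 6 of 9 members rose and none fell, with a median of 0.16, and 293 of 439 other genes rose, with a median of 0.43. On the X chromosome 2 of 3 members rose. On chromosome 13, 2 of 17 members rose and 4 fell, with a median of -0.03 beside 0.36 for the other genes. Chromosome 7 holds the most members, 59, of which 3 rose and 23 fell, with a median of -0.09.

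Over the 20 chromosomes, the members' median and that of the other genes had a Pearson r of 0.83, and over the 10 chromosomes with 10 or more members 0.88, as a description, since both medians come from the same libraries. The members' median lay below that of the other genes on 18 of 20 chromosomes, the exceptions being chromosome 1 and X with 3 members each. After the median of the other genes of its chromosome was subtracted from each member, the median over the 260 members was -0.26, with 212 below 0 and 48 above. The same subtraction gave -0.35 in members with the KRAB pattern and -0.12 in those without it. Leaving out chromosome 17, 24 of 222 members rose and 109 fell, with a median of -0.19, and of the 105 with a KRAB pattern there 5 rose and 57 fell. Chromosome 17 stood at 37 falls and 1 rise also with KO replicates 1 to 4 alone. Why whole chromosomes shifted was not tested.

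**Figure D5:**
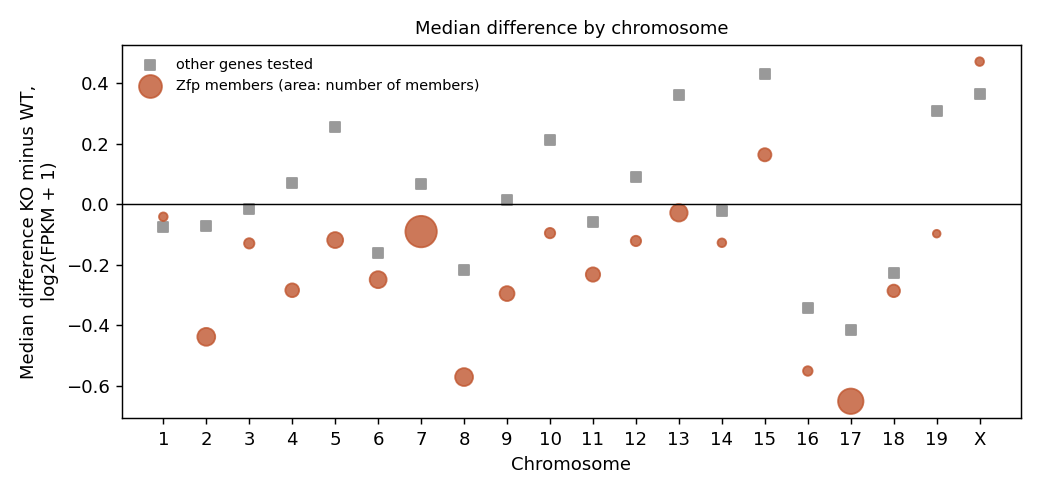
Median KO minus WT difference in log2(FPKM + 1) on each chromosome, for the Zfp members (circles, area by number of members) and the other genes tested (squares). The members lie below the other genes on 18 of 20 chromosomes and reach -0.65 on chromosome 17.

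Members close together on a chromosome moved together in some clusters and not in others. The largest cluster, chr17:21008903-23599487, holds 23 members, of which 21 were counted for calls, 20 fell and Zfp52 rose, with a median of -0.69. A further 10 members lie in chr17:32765496-33631779, among them Zfp871 and Zfp799, and all 10 fell, with a median of -0.68 beside -0.86 in 4 other tested genes there. All 5 members of chr8:69209038-69791178 fell, with a median of -0.56. By contrast, 2 of 10 KRAB members in chr13:67121660-67755228 fell and none rose (median -0.06), and of the 9 members in chr7:127233061-127885996, around Zfp764, 2 rose and 1 fell. In chr7:29768552-30169750, which holds Zfp568 and Zfp260, 6 of 11 fell. Members with another Zfp gene within 500 kb fell in 102 of 173 cases (59.0%) and the rest in 44 of 87 (50.6%). Without chromosome 17 the first count was 70 of 140 (50.0%), beside 109 of 222 (49.1%) over all members outside chromosome 17. Among genes tested that reach 1 FPKM in both genotypes, 30.8% rose and 30.9% fell.

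Calls were further counted by shared sequence and by overlapping genes, whose part in the falls was not tested. Of 192 members with no 100-base word in another gene 21 rose and 104 fell (54.2%). Of 27 with more than 10% of their words shared 1 rose and 19 fell (70.4%). Of 210 members with at most 5% of their exon bases overlapping another gene on either strand, 20 rose and 120 fell (57.1%). Of the other 50, 5 rose and 26 fell (52.0%). Among genes tested that reach 1 FPKM in both genotypes, 30.8% rose and 30.9% fell.

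KO replicates 5 and 6 lay further down in many members. Both were below all of KO replicates 1 to 4 in 115 of 269 members (42.8%) and above all of them in 27 (10.0%), where the same held for 32.3% and 24.7% of all genes tested. The widest gaps on the log2(FPKM + 1) scale were in Zfp970 and Zfp799 above and in a pair that was not called. Zfp810, a KRAB gene next to Zfp809, was at 1.62, 1.61, 1.82, 1.63, 0.39 and 0.47 FPKM in KO replicates 1 to 6 and at 1.55 to 1.9 FPKM (median 1.66) in WT. Zfp950 was at 3.1, 3.66, 3.54, 4.01, 1.45 and 1.88 FPKM in KO and at 3.29 to 4.41 FPKM (median 3.41) in WT. In both, KO replicates 1 to 4 overlapped the WT libraries and replicates 5 and 6 lay below them. Beside this, the level of the proliferation marker Mki67 was 14.2 to 18.0 FPKM in KO replicates 1 to 4, 31.5 in replicate 5 and 120.0 in replicate 6, with 20.1 to 27.5 in WT; its part in the members' values was not tested.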

How the data were processed

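Polyadenylated RNA of 12 libraries, 6 WT and 6 KO, was sequenced as paired ends with dUTP strand marking, per the labels' protocols. Named with no roles in the submitters' processing notes are StringTie 1.3.4d, HISAT2 2.0.4, cutadapt 1.9, edgeR, DESeq2 and build mm9. The authors deposited FPKM to 2 decimals, and beside it their own p-value and q-value, a fold (ratio of WT over KO) and the log2 of that fold. FPKM is relative within a library, depth in reads is unknown, and no count test was run.

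Rows with at least 1 FPKM in at least 6 libraries were fitted as log2(FPKM + 1) with limma 3.58.1 (R 4.3.3), variance trend, no covariate, two-sided, Benjamini-Hochberg over 11831 genes. A pseudocount of 1 understates changes of low genes; folds are ratios of mean FPKM. Positions and coding sequences are from GENCODE M21 (GRCm38), not the build in the notes, and promoters from RefSeq GRCm38.p6.

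The members, gene lists and tests were chosen with earlier results of these data known. Named are the on/off members, the 8 largest rises and falls among called members, the 5 highest, the members of the 3 role lists, 2 on each side of the threshold, and the 4 with the widest gap of KO replicates 5 and 6; other names were chosen after their values were seen and are marked so or complete a list, count or stretch. Alternatives covered pseudocount, filter, scaling, variance model, a rank-sum test, the replicate block and left-out libraries.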

Additional observations from a re-analysis of the deposited data

Results flagged for a closer look

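Among the named members, a library stood apart from the other 5 of its genotype, by its gap relative to the range of the 6, in 16 of 122 groups. Chance would flag about 1 in 20 groups if they were independent and normally distributed. These groups come from the same 12 libraries, and 4 members were named for the gap of KO replicates 5 and 6. The count therefore cannot be read as an excess over that rate. KO replicate 6 was the library set apart in 10 of the 16. It was the highest in Zfp106 (31.8 FPKM, the others 19.9 to 24.2), Zfp335 (9.94 FPKM, the others 4.53 to 6.07), Zfp462 (6.93 FPKM, the others 3.55 to 4.67), Zfp592 (5.30 FPKM, the others 3.49 to 4.02), Zfp598 (13.4 FPKM, the others 7.63 to 9.04), Zfp609 (8.65 FPKM, the others 4.83 to 6.00) and Zfp687 (6.09 FPKM, the others 4.13 to 4.69). It was the lowest in Zfp24 (3.67 FPKM, the others 4.96 to 5.52), Zfp932 (1.97 FPKM, the others 2.44 to 2.68) and Zfp993 (3.12 FPKM, the others 4.28 to 4.63). KO replicate 5 was set apart in Zfp217 (6.37 FPKM, the others 7.77 to 8.44), Zfp367 (6.99 FPKM, the others 3.54 to 4.65) and Zfp651 (2.53 FPKM, the others 3.55 to 3.95). In WT, the libraries set apart were replicate 1 of Zfp281 (11.9 FPKM, the others 13.1 to 13.5), replicate 4 of Zfp568 (1.95 FPKM, the others 3.19 to 3.78) and replicate 6 of Zfp760 (5.88 FPKM, the others 5.16 to 5.39).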

How the results depend on the processing

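Of the 260 members, 171 were called, and 157 to 177 when 1 library was left out, with 22 to 25 higher and 135 to 153 lower (all genes 7121 to 8105). With at least 5 FPKM in 6 libraries fewer genes enter: 54 of 71 members were called, 14 higher and 40 lower, among 4775 genes called. With the replicate block, 158 members were called, 23 higher and 135 lower, and 6959 genes; the numbers do not pair the libraries, with correlations of -0.27 to -0.06 between same-numbered ones. Over the other settings 155 to 182 members were called. Under the 23 alternatives that keep all 260, 131 falls and 21 rises remained called, and no member was called in opposite directions. The signs that reversed were those of members not called in the reported fit. Quantile normalization gave -0.114 for Zfp207, -0.062 for Zfp281 and -0.001 for Zfp775. Weights per library gave -0.052 for Zfp143, 0.055 for Zfp644 and 0.019 for Zfp950, and TPM scaling 0.008 for Zfp644. KO replicates 1 to 4 alone gave -0.034 for Zfp143, -0.005 for Zfp335 and 0.057 for Zfp644. Leave-one-out values ran from -0.110 to 0.021 for Zfp106, -0.013 to 0.066 for Zfp207, -0.014 to 0.054 for Zfp281 and -0.039 to 0.038 for Zfp644. The cause was not tested. Low FPKM, unknown depth and shared sequence among near-identical KRAB genes limit the precision of single members.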
